A study of Homo sapiens with 5 samples.

Results

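Glutathione is the tripeptide with which cells detoxify electrophiles and peroxides, and it is also a building block of a lipid mediator: leukotriene C4 is a glutathione conjugate. Glutathione transferases join glutathione to their substrates, gamma-glutamyl transferases cut its glutamate off again outside the cell, and a synthetase and a reductase keep the pool filled and reduced. The 10 genes examined are the membrane-bound transferases MGST1, MGST2 and MGST3, the soluble transferases GSTP1, GSTO1 and GSTK1, the reductase GSR, the synthetase GSS and the gamma-glutamyl transferase family members GGT5 and GGT7. They were taken by symbol, as all probe sets annotated to 1 of these genes alone, and they are carried by 21 probe sets of 54675 on the array. Of these 21, 19 were above a floor for weak signals (a scaled signal of 48.7) on at least 1 array, so 9 of the 10 genes were measured, among 15374 measured genes in all.

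The cells were MonoMac6, an established human line of monocytic origin. Unstimulated MonoMac6 cells were set beside cells given 1 of 2 leukotrienes, B4 or C4, or 1 of 2 lipoxins, A4 or B4 (LTB4, LTC4, LXA4 and LXB4 in the plots), each at 100 nM for 12 h from a stock in DMSO. Whether DMSO alone was given to the unstimulated cells is not stated in the sources used here. There were 5 arrays, 1 for each condition, so no difference between conditions was tested, and the number of arrays limits the precision. Leukotriene C4 differs from the other 3 compounds in its glutathione group.

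The arrays were checked against markers of cell types. Of 11 monocytic markers, 9 had a probe set of their own and 8 of these were above the floor on at least 1 array. CD4, 1 of these 8, was under it with leukotriene B4 and lipoxin B4. LYZ, the lysozyme of phagocytes, lay between 36105 and 49119, whereas FCGR1A was under the floor on all 5 arrays. SPI1 (4630 to 7471), CSF3R (762 to 1040) and MPO (682 to 810) lay between these. CD14 (188.5 to 319), CSF1R (223 to 310), ITGAM (127 to 178) and CD4 (3.60 to 147) were dim. They were no brighter than some markers of other lineages, such as COL1A1 (177 to 299) and CD79A (123 to 168). T cell markers summed to between 85.4 and 197.9, with CD2, CD3G and TRAT1 under the floor throughout. The summed signal was 292 to 379 for B cell markers, 741 to 1078 for erythroid markers, 84.1 to 206 for epithelial and liver markers and 4958 to 5616 for fibroblast and endothelial markers. EPOR (570 to 895) and PECAM1 (4648 to 5138), which monocytic cells may also express, made up most of the erythroid and endothelial sums. The ratios of 3' to 5' control signals lay between 1.10 and 1.14 for ACTB and between 0.996 and 1.06 for GAPDH. The 18S ribosomal RNA control was dimmest without a stimulus (186.5) and brightest with leukotriene C4 (3069), and its part in the differences below was not tested. A lower signal from fewer cells of a kind cannot be told apart from less RNA in each cell.

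Most of the 10 genes differed little between the 5 arrays. The 8 genes MGST1, MGST2, MGST3, GSTP1, GSTO1, GSTK1, GSR and GSS each had a brightest probe set over 2000 on every array, and its largest log2 difference from the unstimulated array was 0.31 in size (MGST3 with lipoxin A4). GGT5 was under the floor on all arrays. GGT7, a dim gene, was the only member whose brightest probe set was at least 2-fold apart from unstimulated cells, and only with leukotriene C4. This made 1 of 9 members called with leukotriene C4, against 2.85% of all measured genes, and 1.66% when lower genes alone are counted. No member was called with leukotriene B4, lipoxin A4 or lipoxin B4, where 2.43%, 2.39% and 2.47% of all genes were. When all probe sets of a gene were averaged, MGST3 was called with both lipoxins (log2 -1.40 and -1.36). Its second probe set carried that average (a bound of -3.53 with each lipoxin), while the other probe sets had -0.31 and -0.35 with lipoxin A4. With lipoxin B4 they had -0.19 and -0.35. The share of all genes called under averaging is not given. At 1.5-fold, GGT7 was again the only member called, with leukotriene C4 and both lipoxins. The shares of all genes at that size were 10.6% with leukotriene B4, 12.2% with leukotriene C4, 9.90% with lipoxin A4 and 11.1% with lipoxin B4.

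**Figure D1:**
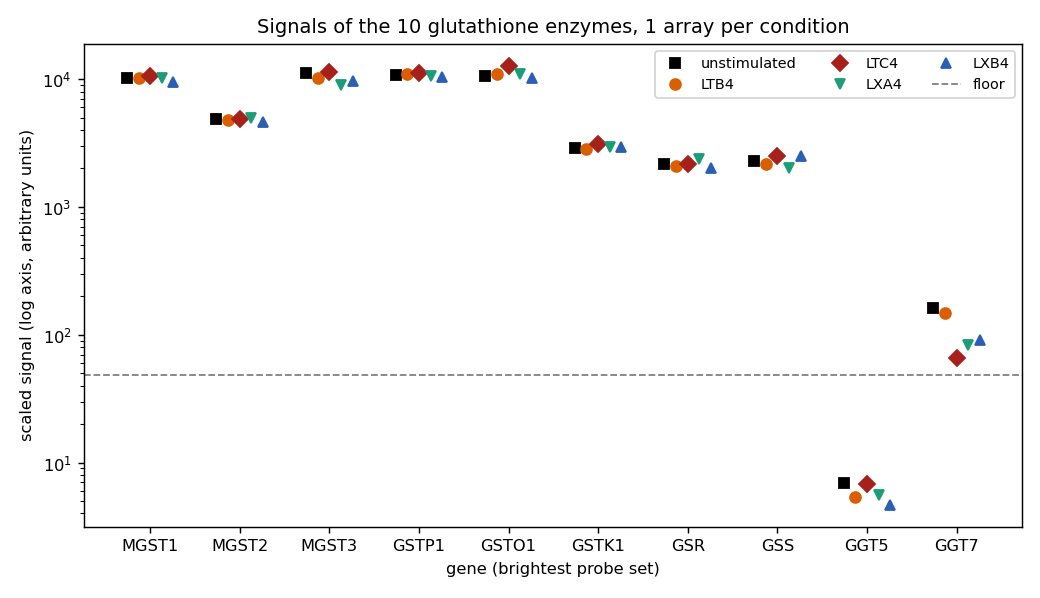
Scaled signal (log axis, arbitrary units) of the brightest probe set of each of the 10 genes, with 1 point for each array and the floor for weak signals as a dashed line. The 8 genes on the left and centre keep above 2000 with nearly overlapping points, GGT5 lies under the floor and GGT7 lies between 66.3 and 162.

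The membrane-bound transferases belong to the MAPEG family, which also holds the leukotriene C4 synthase LTC4S. MGST1 sits in the endoplasmic reticulum and the outer mitochondrial membrane, where it conjugates glutathione and reduces lipid peroxides. The brightest MGST1 probe set had signals of 10211 without a stimulus, 10171 with leukotriene B4, 10510 with leukotriene C4, 10192 with lipoxin A4 and 9516 with lipoxin B4. These values span 0.14 on the log2 scale, less than the spread of 0.16, which is the SD, over all genes brighter than 2000, of the log2 difference from 1 stimulated array to another. The next 2 MGST1 probe sets spanned 0.14 and 0.05. The fourth was dim and behaved otherwise: its signal was 21.6, under the floor, without a stimulus, and 69.4, 93.5, 74.5 and 76.9 with leukotriene B4, leukotriene C4, lipoxin A4 and lipoxin B4. All 4 stimulated arrays thus lay above the floor and the unstimulated one below it, by at least 1.43-fold, 1.92-fold, 1.53-fold and 1.58-fold. The probe set counts as measured only through the stimulated arrays, so part of this order follows from that filter. These bounds are 0.51, 0.94, 0.61 and 0.66 on the log2 scale, beside a spread of 0.42 between stimulated arrays at this signal. That spread is taken after values under the floor are set to it, and it was 0.50 at signals of 100 to 200. The 3 bright probe sets had differences of at most 0.14 in size, although the second of them was also lowest without a stimulus (0.05, 0.14, 0.05 and 0.00). All 3 have names ending in _x_at or _s_at, so their probes may match other transcripts, and with such probe sets left out the dim one stands for MGST1. The last of the 5 MGST1 probe sets stayed under the floor on every array.

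MGST2, which can make leukotriene C4 from leukotriene A4 as LTC4S does, had signals of 4873, 4784, 4908, 4964 and 4656 on the unstimulated, leukotriene B4, leukotriene C4, lipoxin A4 and lipoxin B4 arrays. Its whole range was 0.09 on the log2 scale. LTC4S, for comparison, was dim: 178 without a stimulus, 144 with leukotriene B4 and between 223 and 231 on the other 3 arrays. Its differences ran from -0.30 to 0.38, within the spread of 0.50 for genes of signal 100 to 200.

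MGST3, another microsomal transferase with glutathione peroxidase activity, had lower signals with both lipoxins than on the other 3 arrays on each of its 3 probe sets. On the brightest, the signals were 11079 without a stimulus, 10233 with leukotriene B4, 11377 with leukotriene C4, 8957 with lipoxin A4 and 9708 with lipoxin B4. The log2 differences from unstimulated cells were -0.11, 0.04, -0.31 and -0.19, so lipoxin A4 lay past the spread of 0.16 at this signal and lipoxin B4 just past it. The second MGST3 probe set had 561 without a stimulus, 401 with leukotriene B4 and 436 with leukotriene C4, but 28.5 with lipoxin A4 and 48.1 with lipoxin B4. On the lipoxin arrays it was under the floor, a difference of at least 11.5-fold each. The third, close to the floor, had 62.0, 67.7 and 63.3 on the first 3 of these arrays, against 40.8 with lipoxin A4 and 30.4 with lipoxin B4. The direction was shared by the 3 probe sets and the size was not: the brightest was 1.24-fold lower with lipoxin A4. The third gave bounds of -0.35 (log2) with each lipoxin, which do not pass the spread of 0.42 at its signal.

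The pattern was picked out after its values were seen, so its counts among all genes are a description. Both lipoxin arrays lay below the other 3 on the brightest probe set of 8.73% of genes, GSTP1 among them. For genes with at least 3 measured probe sets, the share with that order on every probe set was 0.331% (12 of 3629); 3 members had as many, and MGST3 alone showed it. Only 3 of 29424 probe sets (0.0102%) had both lipoxin arrays at least 2-fold below the other 3, the second one of MGST3 and 1 each of CHST5 and BDP1. Its manufacturer's name has the ending _x_at, given to probe sets some of whose probes can match transcripts of other genes, so the source of its signal is uncertain. Among 15373 genes the profiles nearest to it over the 5 arrays were those of DLK2, CHST5 and CEND1, at root mean square distances of 0.91, 0.92 and 0.94 on the log2 scale. None of these is a close match: DLK2 had 156, 136 and 208 on the unstimulated and leukotriene arrays and 70.1 with lipoxin A4, and was at the floor with lipoxin B4.

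**Figure D2:**
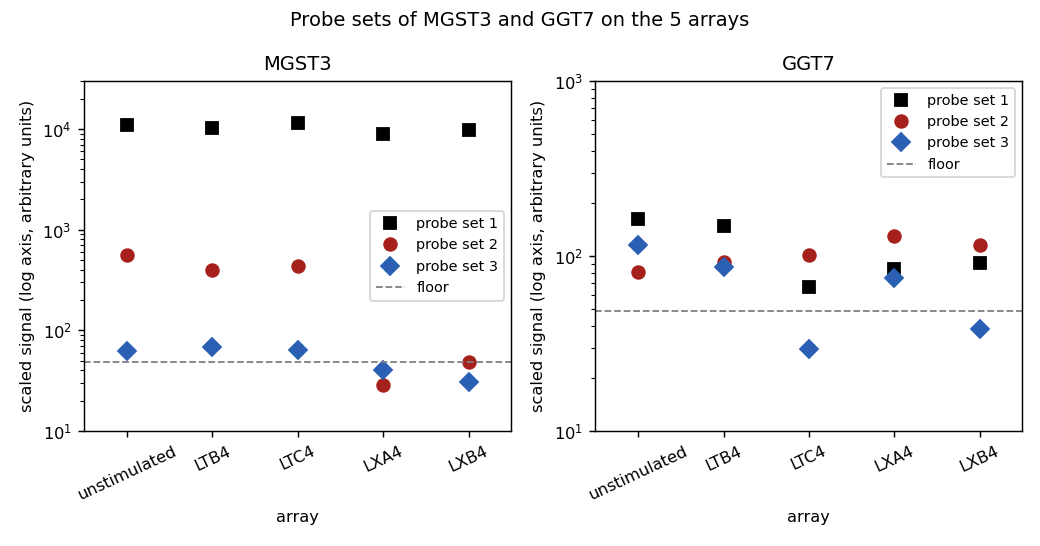
Scaled signal (log axis, arbitrary units) of the 3 measured probe sets of MGST3 (left) and GGT7 (right) on the 5 arrays, numbered from the brightest, with the floor as a dashed line. The second MGST3 probe set has 28.5 and 48.1 on the lipoxin arrays against 401 to 561 on the others, whereas probe sets 1 and 3 of GGT7 are lowest with leukotriene C4 and its probe set 2 is lowest without a stimulus.

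Among the soluble transferases, GSTP1, the pi-class enzyme found in many tissues, had 10865, 10940, 11101, 10547 and 10467 in the order unstimulated, leukotriene B4, leukotriene C4, lipoxin A4 and lipoxin B4. These span 0.09 on the log2 scale, within the spread. GSTK1, the kappa-class enzyme of mitochondria and peroxisomes, had 2883, 2847, 3084, 2941 and 2957, a span of 0.11. GSTO1, the omega-class enzyme that reduces mixed disulfides and dehydroascorbate, was the soluble transferase that varied most. Its brighter probe set had 10527, 11039, 12688, 10892 and 10297 in the same order, and its other probe set 8408, 8191, 10337, 8794 and 8268. Leukotriene C4 was highest on both, 0.27 and 0.30 above unstimulated cells on the log2 scale, or 1.21-fold and 1.23-fold. It lay 0.24 and 0.30 above the mean of the other 3 stimulated arrays. The median log2 difference of the 3129 genes brighter than 2000 was 0.13 on that array, and after quantile normalization the GSTO1 differences were 0.17 and 0.19.

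Several transferase genes are known targets of NRF2, the transcription factor of the antioxidant response, whose binding element has the core TGACNNNGC. The promoters of GSTO1, the member highest with leukotriene C4 on both probe sets, and of GSTP1, whose signals span 0.09, are shown because both contain that core. They are from RefSeq (GRCh38.p14), read 5′ to 3′ on the plus strand, from 250 bases before the start site to 50 after it, and capitals mark the matches. GSTO1 lies at chr10:104254642-104254941 and GSTP1 at chr11:67583562-67583861.
GSTO1: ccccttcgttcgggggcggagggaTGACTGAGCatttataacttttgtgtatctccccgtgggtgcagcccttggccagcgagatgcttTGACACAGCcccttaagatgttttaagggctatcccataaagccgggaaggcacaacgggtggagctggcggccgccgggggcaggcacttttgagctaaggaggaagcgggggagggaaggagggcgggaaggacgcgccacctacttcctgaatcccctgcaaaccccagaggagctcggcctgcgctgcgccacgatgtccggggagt
GSTP1: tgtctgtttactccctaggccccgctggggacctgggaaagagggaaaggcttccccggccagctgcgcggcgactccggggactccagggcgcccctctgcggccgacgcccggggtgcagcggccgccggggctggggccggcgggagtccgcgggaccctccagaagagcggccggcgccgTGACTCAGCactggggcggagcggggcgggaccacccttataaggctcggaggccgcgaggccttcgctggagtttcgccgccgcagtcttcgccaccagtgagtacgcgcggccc

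The GSTO1 matches begin 226 and 161 bases before the start site and read TGACTGAGC and TGACACAGC. The GSTP1 match begins 66 bases before it and reads TGACTCAGC. Promoters were found for 6 of the members (MGST1, MGST3, GSTP1, GSTO1, GSTK1 and GGT7), and the core was present on either strand in 3 of their 8 promoters, from GSTO1, GSTP1 and 1 of 3 start sites of MGST1. Of all 35116 promoters of 300 bases, 13.3% contained it. A match of letters does not show a bound site, and binding was not measured.

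The enzymes of glutathione supply differed by at most 0.19 (log2, in size) from unstimulated cells on their brightest probe sets. GSS, which adds glycine in the last step of glutathione synthesis, had 2306, 2178, 2486, 2015 and 2502 on its brighter probe set and 2106, 1783, 1959, 1882 and 1946 on the other, in the order used above. The probe sets gave opposite signs with leukotriene C4 (0.11 and -0.10) and lipoxin B4 (0.12 and -0.11), so no direction can be given there. GSR, the reductase that returns oxidised glutathione to its reduced form with NADPH, had 2159, 2088, 2185, 2372 and 2008 on its brighter probe set. Its other probe set had 1602, 2051, 2547, 1845 and 2256. On this one the unstimulated array was lowest and leukotriene C4 highest. The log2 differences were 0.36, 0.67, 0.20 and 0.49 for leukotriene B4, leukotriene C4, lipoxin A4 and lipoxin B4, each above the spread of 0.16 over 2000. Its signals lie on both sides of 2000, and at 500 to 2000 the spread was 0.21, which the lipoxin A4 difference does not pass. All 4 differences share the 1 unstimulated array, which does not enter either spread. On the brighter probe set the same 4 differences were -0.05, 0.02, 0.14 and -0.10. The value of GSR therefore rests on which probe set is read. With leukotriene C4 the second gave a 1.59-fold higher signal, and log2 0.58 after quantile normalization.

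Gamma-glutamyl transferases take the glutamate from glutathione conjugates, the step that turns leukotriene C4 into leukotriene D4. GGT5, an enzyme with this activity, had signals of 4.67 to 6.95 on its 1 probe set and was under the floor everywhere. GGT1, the main enzyme of the family, was under the floor on 4 arrays and had 69.9 with lipoxin B4. GGT7, a membrane protein of the same family, was measured by 3 probe sets that did not go together. The brightest had 162 without a stimulus, 148 with leukotriene B4, 66.3 with leukotriene C4, 83.9 with lipoxin A4 and 91.3 with lipoxin B4. Leukotriene C4 was lowest, 2.45-fold below unstimulated cells (log2 -1.29), and the lipoxins gave -0.95 and -0.83. The third had 116, 86.4, 29.4, 74.5 and 38.5 in that order and was lower as well, by at least 2.39-fold with leukotriene C4 and with lipoxin B4. The second had 81.4, 92.1, 101, 131 and 115, so it was higher on all 4 stimulated arrays, with 0.31 for leukotriene C4 and 0.69 for lipoxin A4. The spread at signals of 100 to 200 was 0.50. The call of GGT7 is therefore that of 2 probe sets out of 3. It was lost when the 3 were averaged (log2 -0.74 with leukotriene C4) and turned to 0.31 when the brightest, whose name ends in _s_at, was left out. On chromosome 20, GGT7 and GSS are separated by 1 protein-coding gene, ACSS2.

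Counting probe sets in place of genes, 0 of 19 were at least 2-fold apart with leukotriene B4, 2 with leukotriene C4 (both of GGT7), 1 with lipoxin A4 (MGST3) and 2 with lipoxin B4 (MGST3 and GGT7), all lower. Among all 29424 measured probe sets with 1 symbol the shares were 2.84%, 3.24%, 2.53% and 2.95%. Of 6 members with several measured probe sets, MGST3 and GGT7 had probe sets whose differences from unstimulated cells lay at least 2-fold apart on some array. That was also so for 29.3% of the 7536 genes with several measured probe sets, so it is not particular to these enzymes.

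**Figure D3:**
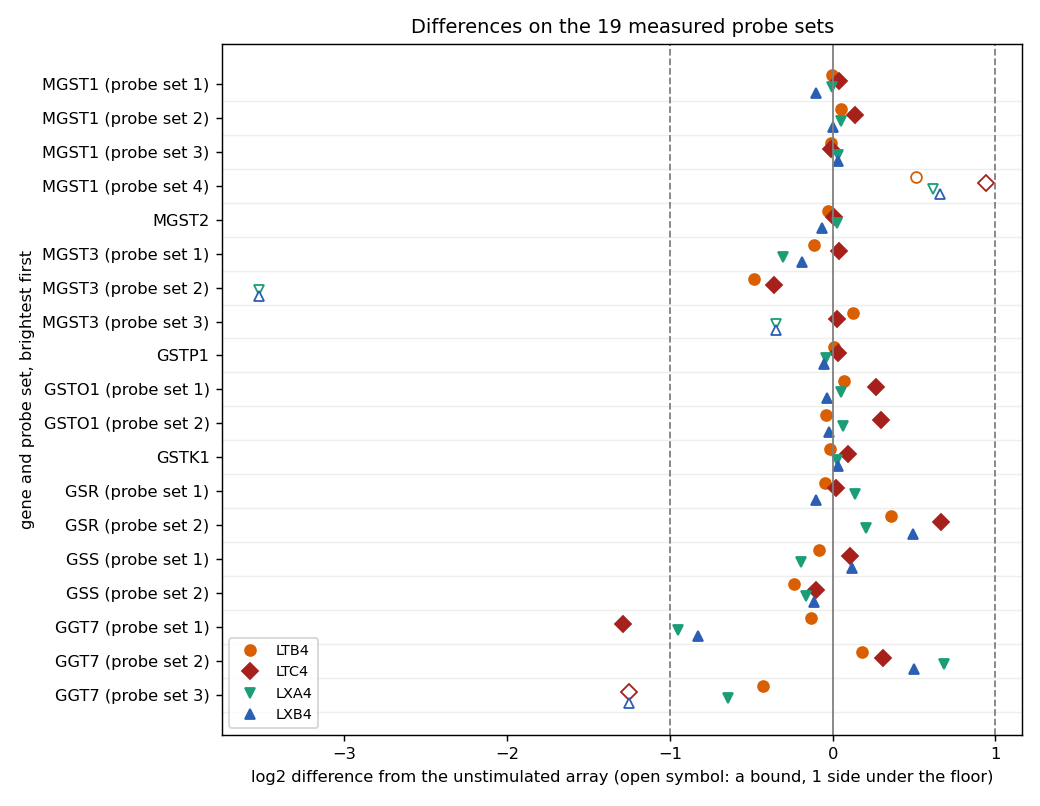
Log2 difference of each stimulated array from the unstimulated array on the 19 measured probe sets of the 9 measured genes, with dashed lines at a 2-fold difference. Open symbols are bounds, where 1 of the arrays lies under the floor. Most points lie near 0, and those past a dashed line belong to MGST3 (second probe set) and GGT7.

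As a set, the members had a median log2 difference of -0.03 with leukotriene B4, 0.04 with leukotriene C4, 0.00 with lipoxin A4 and -0.07 with lipoxin B4. Over all measured genes the medians were 0.00, 0.06, 0.00 and 0.00. With leukotriene B4 and with lipoxin B4, 7 of 9 members were below 0, against 44.6% and 45.7% of all genes. With leukotriene C4, 8 of 9 members were above 0, against 57.1% of all genes, but this direction came with the scaling: the median was -0.07 after quantile normalization and -0.03 on the values as deposited. The 8 bright members, a subset taken after the values were seen, had medians of -0.02, 0.04, 0.01 and -0.06, each below the 0.06, 0.13, 0.05 and 0.05 of the 3129 genes brighter than 2000. The leukotriene C4 array was the highest of the 5 for 5 of 9 members, which compares with 32.2% of all genes and 49.8% of genes brighter than 2000. The lipoxin B4 array was the lowest for 5 of 9, against 22.2% of genes not tied at the floor and 27.8% of the bright ones. After quantile normalization these counts were 1 and 3.

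Between stimulated arrays, most members lay close together on their brightest probe sets. Read so, 1 of 9 members was at least 2-fold apart between leukotriene B4 and leukotriene C4 (GGT7, 1.16 higher with leukotriene B4 on the log2 scale). Between the other 5 pairs it was 0. The second MGST3 probe set is not in these counts. It spanned at least 8.97-fold, with 401 and 436 for leukotrienes B4 and C4 against 28.5 and 48.1 for lipoxins A4 and B4. Over all genes, 2.43% were at least 2-fold apart between the leukotrienes and 1.31% between the lipoxins. The shares were 1.45% and 1.28% for leukotriene B4 against lipoxins A4 and B4, and 2.20% and 2.15% for leukotriene C4 against them. Against the mean of the other 3 stimulated arrays, leukotriene C4 had a member median of 0.08, and 0.04 over all genes; after quantile normalization the member median was -0.01. With 1 array for each compound, whether the glutathione group goes with any of these differences was not tested.

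Of 84 other listed genes of glutathione supply, conjugation, reduction, hydrolysis and transport, 68 were measured. Of these, 1 was at least 2-fold apart on any array, against 6.28% of all genes. When every measured probe set was read and not only the brightest, 5 of the 68 were (TXN, TKT, DPEP2, CNDP2 and SLCO2B1), against 12.8% of all genes. The 1 gene called on its brightest probe set was DPEP2, a dipeptidase that cuts leukotriene D4 to E4. It was under the floor without a stimulus (20.6) and had 101 with leukotriene B4, at least 2.08-fold higher. This bound is 1.05 on the log2 scale, beside a spread of 0.42 between stimulated arrays at this signal. DPEP2 counts as measured only through stimulated arrays, so part of this order follows from that filter. The call was lost with a floor at the 70th percentile. The 68 genes had medians of 0.03, 0.12, 0.03 and 0.00 with leukotriene B4, leukotriene C4, lipoxin A4 and lipoxin B4. Over all measured genes these were 0.00, 0.06, 0.00 and 0.00, and with leukotriene C4 0.13 for genes brighter than 2000. For the 12 genes of glutathione synthesis and cysteine supply the medians lay between 0.08 and 0.12. The 15 other cytosolic and mitochondrial transferases had medians of -0.07, 0.06, -0.06 and -0.07 in that order, and the 18 genes of reduction, peroxidases and glutaredoxins had 0.03, 0.16, 0.03 and 0.04. The 3 other MAPEG genes (LTC4S, ALOX5AP and PTGES) had -0.20, 0.36, 0.00 and -0.41. Each of these medians is the value of 1 gene: PTGES, LTC4S, ALOX5AP and ALOX5AP in that order. PTGES was dim and under the floor with lipoxins A4 and B4 (14.9 and 43.4). The 5 genes of the glyoxalase group had -0.01, 0.16, 0.03 and 0.10. The 5 transporter genes listed for conjugate export (ABCC1, ABCC4, ABCC5, ABCG2 and SLCO2B1) had 0.00, 0.28, 0.09 and -0.09. Among them, ABCG2 and SLCO2B1 were under the floor on some arrays. For the 10 genes of gamma-glutamyl hydrolysis and peptidases, DPEP2 among them, the medians were 0.02, 0.00, 0.03 and 0.07. Of the rate-limiting ligase, the catalytic subunit GCLC had 1608 without a stimulus and 1436 to 1743 with the compounds. Its modifier subunit GCLM had 2263 without a stimulus and 2598 to 2873 with them, so all 4 stimulated arrays were higher, by 0.20 to 0.34, and none of its 3 probe sets was lower on any of them. The unstimulated array was the lowest of the 5 for 31.6% of all genes not tied at the floor. The glutathione peroxidase GPX1 was highest with leukotriene C4 (27766, against 22627 without a stimulus and 23230 to 23840 on the other 3). That array was also the highest for 49.8% of genes brighter than 2000. GPX1 was 0.29 above unstimulated cells there on the log2 scale, against a median of 0.13 for genes brighter than 2000. The lipid hydroperoxidase GPX4 lay between 10556 and 12037. ABCC1, which exports leukotriene C4, had 828 without a stimulus and 959, 1007, 884 and 777 with the compounds in the same order, with log2 differences of -0.09 to 0.28. Its other probe set was lower on all 4 stimulated arrays, by log2 -0.22, -0.30, -0.13 and -0.84, so the probe sets gave 1 direction with lipoxin B4 alone.

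**Figure D4:**
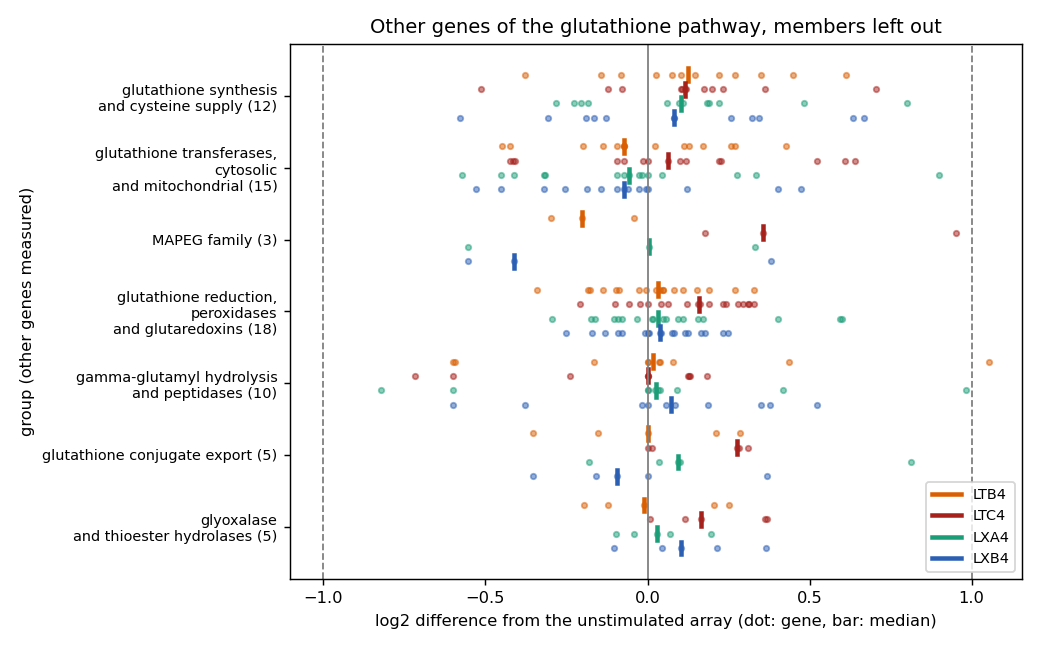
Log2 difference of each stimulated array from the unstimulated array for the 68 other measured genes of the pathway, by group, with 1 dot for each gene and a bar at the median of each group. The 1 dot past a dashed line (2-fold) is DPEP2 with leukotriene B4, a bound.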

How the data were processed

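Total RNA of MonoMac6 cells was read on 5 arrays, 1 for each condition. The authors deposited intensity signals on a linear scale from GCOS 1.4, per the submitters' processing notes; how GCOS computed them is not stated there, and detection calls were not used. The deposited signals had the same mean, 500.1, on every array once the top and bottom 2% of probe sets were dropped.

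With Python 3.11.15, numpy 2.4.6 and pandas 2.3.3, signals were taken to log2 and each array was multiplied by 1 factor (0.978 to 1.03) that made the median of the brighter 50% of probe sets equal. Values below the floor, the 50th percentile of mean log2 signal, were set to it; a difference with 1 side there is a bound. Genes were named from the platform annotation where a probe set had 1 symbol (41097; 1801 had several and 11777 none), 41043 of which matched a gene ID of GRCh38.p14, and each gene was read on its probe set of highest mean log2 signal. Differences of at least 2-fold were called. With 1 array a group no test was run. The spread given is the SD, over genes of like signal, of log2 differences from 1 stimulated array to another. The unstimulated array does not enter it, although every difference from unstimulated cells uses that array. The counting was checked on simulated data.

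The alternatives were quantile normalization, the deposited values, floors at the 30th and 70th percentile, the mean of all probe sets, leaving out probe sets with names in _x_at or _s_at, and a 1.5-fold call. Every member was described; other pathway genes were named if 2-fold apart or if among 7 set by name (LTC4S, GGT1, GCLC, GCLM, GPX1, GPX4 and ABCC1). The members and lists were chosen with earlier results of these data known.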

Additional observations from a re-analysis of the deposited data

Results flagged for a closer look

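In 3 of the 19 measured probe sets both leukotrienes lay on 1 side of the unstimulated array and both lipoxins on the other, as in 4.34% of all 29424 measured probe sets. The difference between the classes was not tested. The third probe set of MGST3 was higher with leukotrienes B4 and C4 (log2 0.13 and 0.03) and under the floor with lipoxins A4 and B4, so that -0.35 for each and the gap of 0.427 are bounds: both may be larger in size. GSTP1 had 0.01 and 0.03 against -0.04 and -0.05, a gap of 0.069, and the third probe set of MGST1 had -0.01 and -0.01 against 0.03 and 0.03 (-0.044). The last 2 gaps are smaller than the spread of 0.16 between stimulated arrays at their signal.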

How the results depend on the processing

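Of 332 single differences recomputed under the alternatives, 305 stayed within the spread at their signal, 26 moved by more and 1 called value turned. Many of them could not move, so the 305 overstate stability. All 36 values for genes above the floor on all 5 arrays were unchanged by construction. The other floors could not change probe sets far above them. Neither averaging nor leaving out shared names could change MGST2, GSTP1 and GSTK1, with 1 probe set each. Going back to deposited values removes only 1 factor per array (0.978 to 1.03), too little to pass even the smallest spread of 0.16. Their 60 of 60 within the spread was thus fixed in advance. With quantile normalization, which could move any difference, 60 of 60 stayed within the spread. The value that turned was GGT7 with leukotriene C4. It was 0.31 when probe sets with shared names were left out, since its second probe set then stands for the gene. The count of members called with leukotriene C4, 1, was 0 under that setting, with a floor at the 70th percentile and with the mean of all probe sets. With each lipoxin it was 1 in place of 0 with a 1.5-fold call (GGT7) and with the mean of all probe sets (MGST3). The MGST3 mean was log2 -1.40 with lipoxin A4 and -1.36 with lipoxin B4, and it was carried by the second probe set. The member median with leukotriene C4 was -0.067 after quantile normalization and -0.031 on deposited values; against the other 3 stimulated arrays it was -0.013 after quantile normalization. The members highest with leukotriene C4 numbered 1 after quantile normalization and 2 on deposited values, against 5. Those lowest with lipoxin B4 numbered 3 after quantile normalization and with the mean of all probe sets, also against 5. The other pathway genes called, 1, numbered 4 after quantile normalization and without shared names, 13 with a floor at the 30th percentile and 0 with one at the 70th. They numbered 12 with a 1.5-fold call and 0 among genes above the floor on all 5 arrays, a setting added after seeing the data. The share of all genes on any array is given at the main setting alone, so these counts are not a result about the pathway. All 3 MGST3 probe sets were lowest on the lipoxin arrays in both other scalings and with the lower floor, and 2 were left to compare with the higher floor. Quantile normalization raised the share of higher genes among called ones from 20.5% to 41.1% with lipoxin B4 and from 29.3% to 43.9% with lipoxin A4. Leaving out a replicate was not possible with 1 array a group. Signals near the floor limit GGT7, GGT5, LTC4S and the dim probe sets of MGST1 and MGST3.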
